A study of Rattus norvegicus with 65 samples.

Results

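Tumors of the fourth transplant were compared with the primary tumors they descended from, in 11 lines of rat mammary tumors. Arrays were chosen by their titles, 11 naming transplant 4 and 11 naming the primary tumor, so 22 of the 65 arrays of the study entered the comparison. Each line is 1 transplant series (10, 13, 17, 19, 25L, 25R, 32, 33, 34, 36 or 42) and had both arrays. The primary group held tumors induced by a carcinogen that the labels do not name. The transplant 4 group held tumors of the same lines after 4 passages through syngeneic hosts, which share the donor's genetic background. Strain, sex, age and any treatment of the hosts are not given in the labels, and neither is whether 25L and 25R came from the same animal. No tumor carries a label for invasion or metastasis, so expression could be compared only by passage and by line. Each array measured 1 tumor of a line, and p-values measure the spread between the 11 lines.

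As background, serial transplantation carries tumor tissue from host to host, and the cells that grow best in each host make up most of the next tumor. Blood vessels, fibroblasts and immune cells of a transplanted tumor come at least in part from the new host, whereas the tumor cells descend from the primary. Mammary carcinoma of luminal type carries simple keratins, Epcam, E-cadherin and claudins, and it can respond to prolactin and ovarian hormones. Dividing cells transcribe a set of genes mainly in G2 and mitosis, among them cyclin B1 and its kinase Cdk1.

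Values are log2 intensities after each array was scaled to a common median intensity of 162. Intensities under 39.8 were set to that floor, which is 5.31 on the log2 scale. Before scaling, array medians lay between 145 and 173 in primary tumors and between 144 and 171 at transplant 4. The transplant 5 array of series 32 stood apart at 96.1, against 143 to 176.5 in the other 64 arrays, so some of the values that use it are also given without it. The log2 ratio of the 3′ to the 5′ Gapdh probe sets, which rises with RNA degradation, ran from -0.18 through a median of 0.05 to 0.37 in primary tumors. At transplant 4 it ran from 0.05 through 0.15 to 0.33 and was higher in 8 of 11 lines, with a mean difference of 0.08 (exact two-sided sign-flip permutation p = 0.12). With this ratio as a covariate no gene passed the threshold used below, while 871 had an unadjusted p under 0.05.

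The epithelial label held in 10 of the 11 primary tumors. Epcam, an adhesion protein of epithelial cells, lay between 10.89 and 12.01 in those 10 and at 6.00 in the primary tumor of series 42. At transplant 4, Epcam was at 7.70 in series 32, at 5.83 in 34 and at the floor in 42, and lay between 10.79 and 11.60 in the other 8 lines. Krt18, a simple keratin, was at the floor at transplant 4 in series 32, 34 and 42. Cdh1, E-cadherin, was at 6.86 in series 32 and at the floor in 34 and 42. So 3 of the 11 transplant 4 tumors were low in epithelial markers, and 2 of these came from primary tumors where the markers were high. The count of calls and the lists with calls or large differences between lines are also given without these 3 lines. In bulk tissue, fewer cells of a type and less RNA per cell cannot be told apart.

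Of 8499 genes tested, 89 differed between transplant 4 and the primary tumor, 45 higher and 44 lower (limma, paired within lines, Benjamini-Hochberg adjusted p under 0.05). The called share was 1.05% of all genes, 0.529% higher and 0.518% lower, and 1468 genes had an unadjusted p under 0.05. Rises were small, with a median of 0.59 and a largest of 1.44 on the log2 scale, and 3 of the 45 reached 2-fold. Falls were larger, with a median of -0.89 and an extreme of -3.09, and 19 of the 44 reached 2-fold. Each of the 89 genes moved the same way in at least 9 of 11 lines. Of the risers, 29 were higher in all 11 lines, and of the fallers, 20 were lower in all 11. For comparison, 0.682% of all genes were higher in all 11 lines and 0.412% were lower in all 11. The median difference over all genes was 0.01. Without rescaling of the arrays the split of calls was 37 higher and 55 lower.

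Adjusted p-values of the called genes lay between 0.024 and 0.049, close to the threshold, with 53 of 89 above 0.04 and another 35 genes between the threshold and 0.06. The number of calls moved strongly when 1 line was left out. No gene passed without series 10, 17, 25R or 33, where the smallest adjusted p was 0.054, 0.064, 0.053 and 0.059 and 1541, 1335, 1185 and 1310 genes had an unadjusted p under 0.05. Leaving out series 32 left 9 genes, 25L 12, 13 28, 34 32, 19 47, 36 74 and 42 100. Over these fits, the highest adjusted p among the 39 called genes followed by line was 0.13. Without the 3 lines low in epithelial markers 12 genes passed (0.141% of those tested), 8 of them among the 89. Fitting all 65 arrays together, which takes the error from every passage, called 534 genes (6.28%), 239 higher (2.81%) and 295 lower (3.47%), and these held 78 of the 89. This fit treats the passages of a line as independent, though they descend from one another, so its p-values may be too small. Without the transplant 5 array of series 32 this fit called 635 (7.47%), 287 higher (3.38%) and 348 lower (4.09%), and 84 of the 89 were among them. None of the genes followed across 25 alternatives changed sign in any of them. Most of these genes were picked by the main fit and most alternatives reuse its arrays, so a change of sign was unlikely from the start. Of the 39 called genes followed, 34 lost their call in 5 or more of the fits with 1 line left out.

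**Figure D1:**
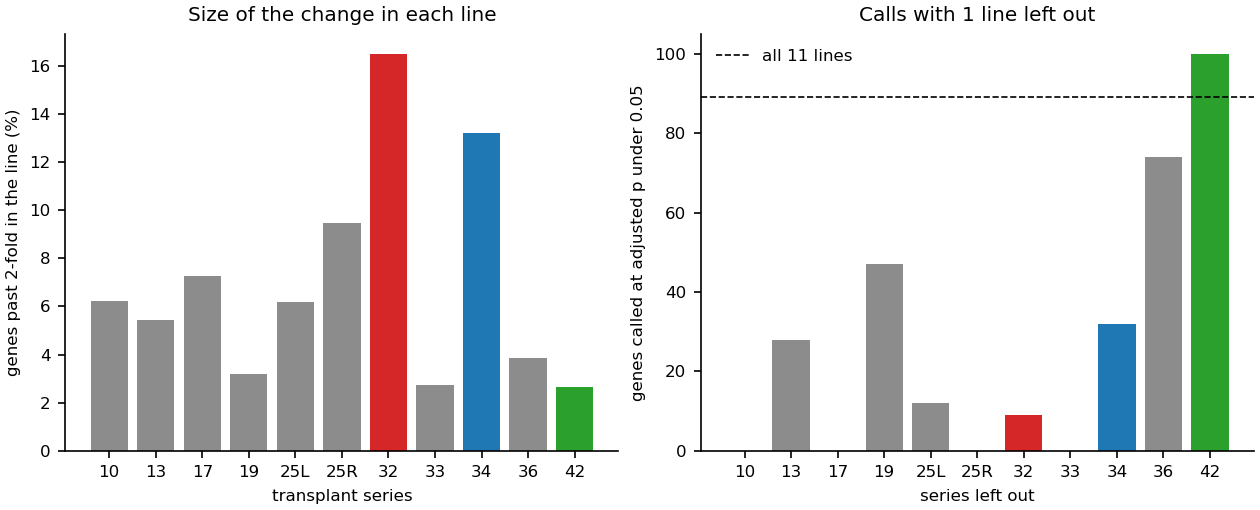
Left, percent of 8499 genes that differed by 2-fold or more between transplant 4 and primary tumor in each transplant series (bars), from 2.65% in series 42 to 16.5% in series 32. Right, number of genes called (limma, adjusted p under 0.05) when the series on the axis is left out, with the 89 calls of all 11 lines as a dashed line; the count is 0 without series 10, 17, 25R or 33.

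Lines differed in how far they lay from their primary tumor. In series 32, 16.5% of genes differed by 2-fold or more between the line's arrays, in series 34 13.2%, in 25R 9.47% and in 17 7.25%. The smallest shares were 2.65% in series 42, 2.74% in 33 and 3.21% in 19. By the median absolute difference per gene, the step from transplant 3 to transplant 4 was smaller than the distance to the primary tumor in 10 of 11 lines, for example 0.13 against 0.33 in series 17. In series 36 it was 0.20 against 0.19. By the correlation of deviations from the mean of all arrays, the most similar array to a transplant 4 tumor belonged to the same line in 9 of 11 cases and was never a primary tumor. The exceptions were 25L, nearest to transplant 1 of 25R (0.71), and 25R, nearest to transplant 4 of series 17 (0.58). The 25R array correlated by 0.18 with its own transplant 3, the lowest of the 11 lines (0.29 in series 36), and by -0.20 with its primary tumor. Its step from transplant 3, 0.27, was the largest. 25R holds the largest difference of several genes below, and whether this array belongs to the line its title names was not tested. Transplant 4 and the primary tumor of the same line correlated between -0.32 in series 32 and 0.83 in 42.

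Genes of mitosis were higher at transplant 4. Of 29 measured genes of this list, 13 rose (44.8%) against 0.529% of all genes and none fell. All 29 had a higher mean at transplant 4, with a median difference of 0.49, where 52.1% of all genes were higher on average. The mean over the 29 genes was higher in all 11 lines, by 0.16 in series 34 to 0.80 in 25R. Within single lines, between 18 of the 29 genes (series 13) and 29 (series 42) lay above the primary tumor. Leaving out 1 line gave 0 calls without series 10, 17, 25R or 33, 3 without 25L or 32, 6 without 13, 7 without 19 or 42, 8 without 34 and 10 without 36. In these 11 fits the list's median lay between 0.42 and 0.54, and all 29 genes stayed higher. Without series 32, 34 and 42 the median was 0.53, 28 of 29 genes were higher and 2 passed. In the fit of all 65 arrays 7 of the 29 rose, against 2.81% of all genes, and 11 without the transplant 5 array of series 32, against 3.38%.

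Cks2, a small protein that binds cyclin-dependent kinases, had a log2 level of 7.51, 8.44 and 9.79 (lowest, median and highest of 11) in primary tumors and of 8.31, 9.33 and 10.69 at transplant 4. The groups overlapped, but transplant 4 was the higher of the pair in all 11 lines, with a rise of 0.80 ± 0.12 (SE; adjusted p = 0.024; exact sign-flip permutation p = 0.00098, the smallest that 11 lines allow). Any gene that moves the same way in all 11 lines gets this unadjusted permutation p. Of all genes, 0.682% were higher and 0.412% lower in all 11, so it is not separate support for Cks2. Ccnb1, cyclin B1, had levels of 6.63, 7.63 and 9.05 in primary tumors and 7.40, 8.60 and 9.42 at transplant 4. It rose by 0.79 ± 0.12 (adjusted p = 0.024), with differences from 0.14 in series 34 to 1.53 in 25R. Its second probe set gave 0.41 and was also higher in all 11 lines. Cdk1, the kinase that cyclin B1 activates, had levels of 8.12, 8.95 and 9.66 in primary tumors and 8.52, 9.47 and 10.00 at transplant 4. It rose by 0.51 ± 0.10 (adjusted p = 0.041) and was higher in all 11 lines, least in series 19 (0.03) and most in 25R (1.19).

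The promoters of 5 of these genes are shown as examples. As background, many genes of G2 and mitosis carry a CHR element (TTTGAA), through which the DREAM complex acts, and CCAAT boxes, bound by NF-Y. Each line gives the 150 bases before the annotated start, 5′ to 3′ on the strand of the gene, from the RefSeq promoter table of assembly GRCr8. Capitals mark CHR letters (TTTGAA, or TTCAAA on the opposite strand) and CCAAT letters (or ATTGG). The stretches are chr17:13727520-13727669 on the minus strand for Cks2, chr20:19265143-19265292 on the plus strand for Cdk1, and chr10:84473094-84473243, chr4:159677939-159678088 and chr2:33655226-33655375, all on the minus strand, for Top2a, Ncapd2 and Ccnb1.
Cks2: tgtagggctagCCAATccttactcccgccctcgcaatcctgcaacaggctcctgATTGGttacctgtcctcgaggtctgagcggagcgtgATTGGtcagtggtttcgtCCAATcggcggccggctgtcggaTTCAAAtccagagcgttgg
Cdk1: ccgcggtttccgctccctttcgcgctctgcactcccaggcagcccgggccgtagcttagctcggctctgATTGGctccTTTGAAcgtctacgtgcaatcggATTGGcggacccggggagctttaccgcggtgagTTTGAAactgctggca
Top2a: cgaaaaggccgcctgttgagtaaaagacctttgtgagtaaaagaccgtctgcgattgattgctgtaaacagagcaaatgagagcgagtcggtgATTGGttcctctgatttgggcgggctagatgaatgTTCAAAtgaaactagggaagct
Ncapd2: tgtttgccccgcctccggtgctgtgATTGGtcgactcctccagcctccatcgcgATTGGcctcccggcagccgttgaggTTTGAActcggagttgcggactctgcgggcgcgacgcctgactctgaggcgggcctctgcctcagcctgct
Ccnb1: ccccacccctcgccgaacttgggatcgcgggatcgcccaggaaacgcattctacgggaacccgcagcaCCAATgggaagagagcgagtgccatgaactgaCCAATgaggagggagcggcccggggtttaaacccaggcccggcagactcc
The CHR letters nearest to the start begin 19 bases before it in Cks2, 16 in Cdk1, 22 in Top2a and 71 in Ncapd2, and Ccnb1 has CCAAT letters alone.

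Over the 250 bases before the start, 11 of the 13 called mitosis genes had an entry, and Racgap1 and Ube2c did not. Both strands were searched, and the motifs were allowed to overlap, which they did by 1 base in Cdca8. CHR letters were found in 6 of the 11, CCAAT in 9 and both in 6. Plk4 and Mybl2, not shown above, held neither, and Ccnb1, Kif20a and Cdc25b held CCAAT alone. Among the 7109 tested genes with a promoter entry, 10.1% held CHR, 35.5% CCAAT and 4.00% both. Among all 27457 promoters the shares were 16.03%, 34.3% and 5.76%. Mitosis genes that were not called had CHR in 8 of 15 and CCAAT in 11 of 15. These matches describe letters, and no binding was measured.

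Regulators of mitotic entry and exit were among the calls. Cdc25b, a phosphatase that activates Cdk1, rose by 0.72 ± 0.15, with differences from 0.18 in series 17 to 1.98 in 32. Mybl2, a transcription factor of cell cycle genes, rose by 0.70 ± 0.15 and also differed most in series 32 (1.98). Ube2c, the ubiquitin-conjugating enzyme of the anaphase-promoting complex, rose by 0.52 ± 0.10 and was higher in all 11 lines. Plk4, the kinase that starts centriole duplication, lay between 5.55 and 6.46 in primary tumors, and 8 of the 11 transplant 4 tumors lay above that range. It rose by 0.57 ± 0.10, with series 13 lower (-0.21). Genes were tested only if their mean over all arrays, most of them transplants, exceeded 6.35. The primary tumor mean of Plk4, 6.01, lay under that limit, so it was tested only because transplants were higher. This favours a rise, and its p-value does not allow for it.

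Parts of the dividing apparatus rose as well. Racgap1, which acts at the spindle midzone, had levels of 6.77, 7.43 and 8.79 in primary tumors and 7.07, 8.29 and 9.91 at transplant 4 and rose by 0.78 ± 0.13 (adjusted p = 0.024). Kif20a, a kinesin of cytokinesis, rose by 0.63 ± 0.09 (adjusted p = 0.024), and both were higher in all 11 lines. Smc4 and Ncapd2, subunits of condensin, which compacts chromosomes, rose by 0.62 ± 0.13 and 0.51 ± 0.09. Cdca8, a subunit of the chromosomal passenger complex, rose by 0.55 ± 0.12 and was higher in 9 lines. Top2a, which untangles sister chromatids, rose by 0.52 ± 0.11 and was higher in 10. Mki67, a marker of cycling cells, differed by 0.59 ± 0.14 and was higher in all 11 lines, but its adjusted p of 0.056 missed the threshold. The smallest difference of the list was 0.05. Pimreg, a mitotic regulator outside the list, rose by 0.82 ± 0.17 in 10 of 11 lines.

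**Figure D2:**
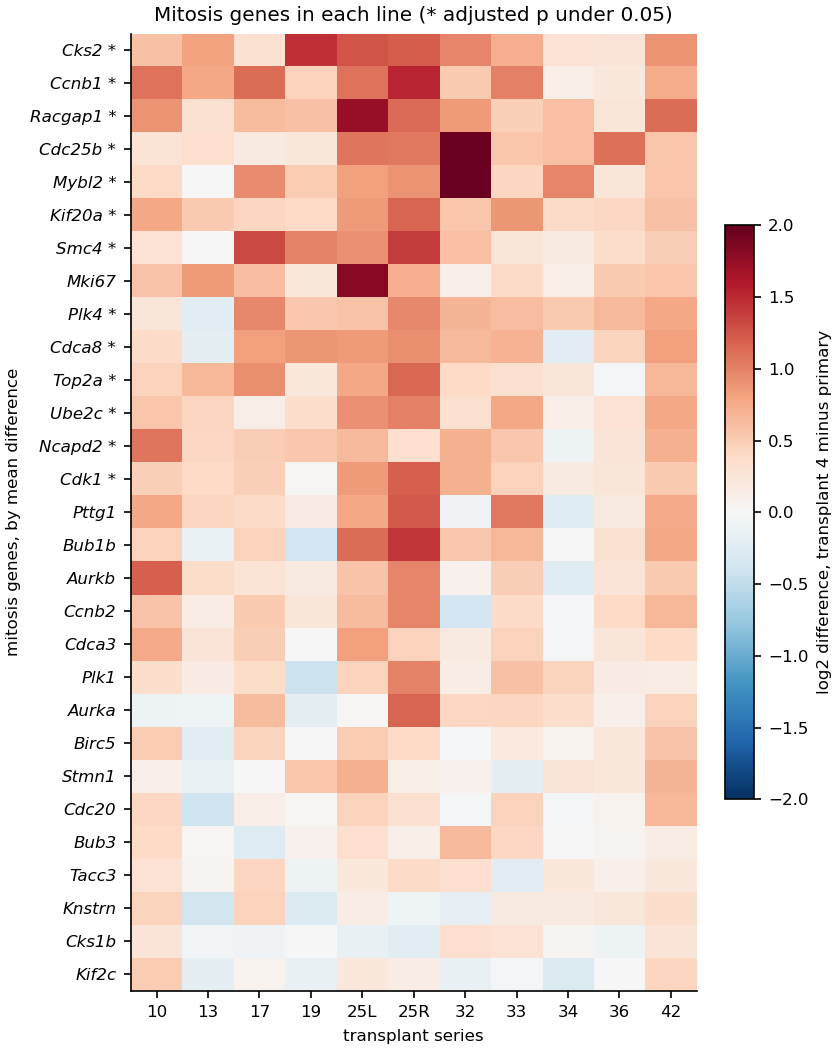
Difference between transplant 4 and primary tumor (log2, colour) for each of 29 mitosis genes (rows, ordered by mean difference, called genes starred) in each of 11 transplant series (columns). Red is higher at transplant 4: 29 of 29 genes are red in series 42 and 18 of 29 in series 13, the fewest.

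Genes of DNA replication differed less. Of 36 measured, 3 rose (8.33%) against 0.529% of all genes, none fell, and 33 had a higher mean, with a median difference of 0.19. Rpa3, a subunit of the protein that covers single-stranded DNA, rose by 0.65 ± 0.12 in all 11 lines. Rrm1, the large subunit of ribonucleotide reductase, rose by 0.55 ± 0.12 in 10 lines, and Mcm3, a subunit of the replicative helicase, by 0.45 ± 0.09 in 10. Ccne2, cyclin E2, differed by 0.63 ± 0.14 (adjusted p = 0.053). With 1 line left out 2 of the 36 passed without series 13, 34 or 42, 1 without 36 and none without any other. Without series 32, 34 and 42 none passed and the median was 0.18.

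Cdhr1, a cadherin-related protein known from photoreceptors, had levels of 5.31, 5.72 and 9.28 in primary tumors and 5.83, 7.49 and 11.16 at transplant 4. It was higher in all 11 lines, by 0.10 in series 19 to 3.05 in 25R, and rose by 1.44 ± 0.23 (adjusted p = 0.024), the largest rise of the called genes. Gnai1, an inhibitory G protein subunit, rose by 1.05 ± 0.21 (adjusted p = 0.041) in 10 lines. Net1, an exchange factor for the GTPase RhoA, separated the groups most clearly of these: primary tumors lay between 6.97 and 7.80, and 10 of 11 transplant 4 tumors lay above that range, up to 9.13. It rose by 0.82 ± 0.13 (adjusted p = 0.024). Acsl4, which activates arachidonic acid, rose by 0.81 ± 0.15 (adjusted p = 0.037) and was lower in series 36 alone (-0.54). Coro1a, an actin-binding protein of leukocytes, had levels of 6.71, 7.12 and 9.05 in primary tumors and 6.99, 8.16 and 10.63 at transplant 4. It rose by 1.03 ± 0.22 (adjusted p = 0.045), with differences from 0.04 in series 42 to 2.37 in 25R. Genes were tested only if their mean over all arrays, most of them transplants, exceeded 6.35. The primary tumor means of Cdhr1 and Gnai1, 6.16 and 6.15, lay under that limit. Both were therefore tested only because transplants were higher. This favours a rise over a fall, and their p-values do not allow for it.

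Cd44, the hyaluronan receptor, was the 1 of 22 mesenchymal genes that rose (4.55%, against 0.529%). Its levels were 6.62, 7.81 and 10.68 in primary tumors and 7.53, 8.71 and 11.05 at transplant 4. It was higher in all 11 lines, least in 25L (0.31) and most in 25R (2.31), and rose by 0.97 ± 0.18 (adjusted p = 0.037). A second Cd44 probe set gave 0.86 and was higher in 10 lines. Without series 10, 13, 17, 25L, 25R, 32, 33 or 34 its call was lost, with an adjusted p of 0.074 at most.

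**Figure D3:**
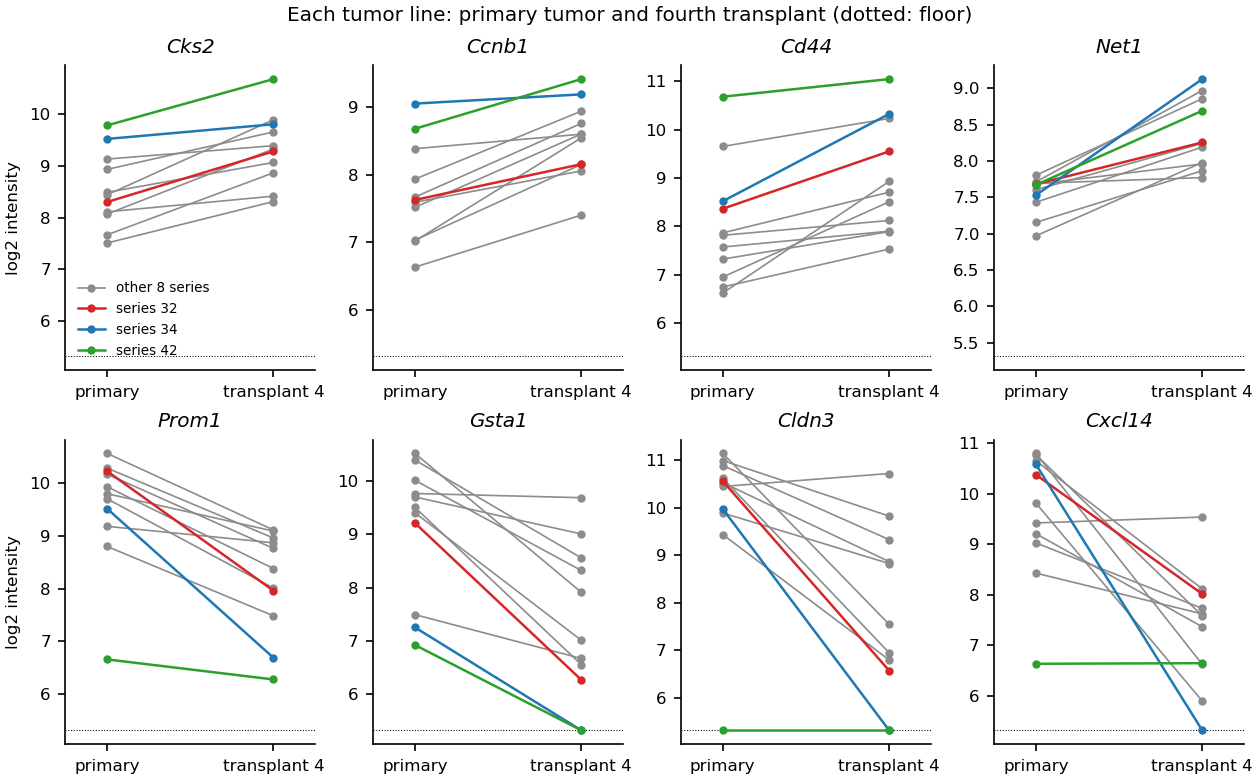
Log2 intensity of 8 genes in the primary tumor and the transplant 4 tumor of each of 11 lines, joined by a line (series 32, 34 and 42 coloured, the other 8 grey; dotted, the floor of 5.31). Cks2, Ccnb1, Cd44 and Net1 are higher at transplant 4 in every line, Prom1 and Gsta1 are lower in every line, and Cldn3 and Cxcl14 are lower in 9 of 11.

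Genes of luminal epithelium had lower means at transplant 4, but 1 passed the test. None of the 19 measured had a higher mean, the median difference was -0.73, and 1 fell (5.26%, against 0.518% of all genes). The mean over the list was lower in 10 of 11 lines, and its size differed widely, at -3.32 in series 34, -2.56 in 32 and -1.44 in 17, against 0.08 in 25L. Without series 32, 34 and 42 the median was -0.33 with 14 of 19 genes lower. In the fit of all 65 arrays 5 of the 19 were called lower, against 3.47% of all genes, and 6 without the transplant 5 array of series 32, against 4.09%. With 1 line left out, none of the 19 passed without series 10, 17, 25R or 33, 2 without 19 or 42, and 1 otherwise. The gene that passed was Prom1, prominin 1, a protein of apical membrane protrusions. Its levels were 6.66, 9.80 and 10.56 in primary tumors and 6.28, 8.38 and 9.11 at transplant 4. It was lower in all 11 lines, from -0.31 in series 19 to -2.83 in 34, and fell by 1.39 ± 0.20 (adjusted p = 0.024). It missed the threshold when series 10, 17, 25R or 33 was dropped (adjusted p of 0.064 at most).

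The defining genes Epcam, Krt8 and Krt5 did not pass, and series 32 and 34 held their largest differences. Epcam differed by -1.07 ± 0.56 (adjusted p = 0.35), with -4.21 in series 32, -6.18 in 34 and between -0.68 and 0.38 in the other 9 lines. Krt8, the keratin that pairs with Krt18, differed by -6.60 in series 32 and by -6.84 in 34, and was higher in 6 of 11 lines. Krt5, a keratin of basal cells, stood at -4.10 in series 32 and at -6.01 in 34, with a mean of -0.85 (adjusted p = 0.48). The basal myoepithelium list had a median of -0.24 over 21 genes, none of which passed, and a median of 0.08 without series 32, 34 and 42.

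Cldn3, claudin 3 of tight junctions, was the 1 of 20 junction genes that fell (5.00%, against 0.518%). Its levels were 5.31, 10.53 and 11.14 in primary tumors and 5.31, 7.54 and 10.72 at transplant 4. It was lower in 9 lines, higher by 0.27 in series 19, and at the floor at both times in series 42. It fell by 2.16 ± 0.44 (adjusted p = 0.041), most in series 34 (-4.66), 32 (-3.99), 17 (-3.67) and 25R (-3.60). In series 17 and 25R, Epcam differed by -0.40 and -0.33. The junction list had a median of -0.65 with 19 of 20 genes lower, and without series 32, 34 and 42 a median of -0.09 with 15 lower and none past the threshold. Its median was -0.43 without series 32 and -0.41 without 34, and 1 gene passed without series 19 or 42 and none without any other line.

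Hormone and growth factor signalling held 3 of the falls. Irs2, an adaptor of the insulin and IGF receptors, had levels of 5.64, 8.12 and 9.20 in primary tumors and 5.31, 6.75 and 8.55 at transplant 4. It fell by 1.34 ± 0.25 (adjusted p = 0.037), lower in 10 lines and higher by 0.91 in series 19. Fgfr3, a receptor for fibroblast growth factors, fell by 1.24 ± 0.25 (adjusted p = 0.041), and Grb7, an adaptor of ErbB receptors, by 0.99 ± 0.20 (adjusted p = 0.042), each lower in 10 lines. In the hormone response list 1 of 19 genes fell (5.26%, against 0.518%), with 17 lower and a median of -0.30, or -0.38 without series 32, 34 and 42. With 1 line left out, 2 of the 19 passed without series 42, 1 without 19, 34 or 36, and none otherwise, and none passed without series 32, 34 and 42. In the fit of all 65 arrays 6 of the 19 were called lower, against 3.47% of all genes, and 6 without the transplant 5 array of series 32, against 4.09%. Among 45 growth factor genes 3 fell (6.67%, against 0.518% of all genes) and none rose, with a median of -0.06. With 1 line left out, 3 of them passed without series 19 or 42, 1 without 34 or 36 and none otherwise, and 1 passed without series 32, 34 and 42. Irs2 belongs to both lists.

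Prlr, the prolactin receptor, had levels of 5.31, 11.13 and 11.68 in primary tumors and 5.31, 9.02 and 11.15 at transplant 4. It was lower in 10 lines and at the floor at both times in series 42. Its difference of -2.28 ± 0.51 missed the threshold (adjusted p = 0.052). A second Prlr probe set gave -1.77, and another, dimmer one gave -0.07. Areg, amphiregulin, a ligand of the EGF receptor, differed by -2.46 ± 0.60 (adjusted p = 0.072), with 8 lines lower and series 19 and 36 higher by 0.88 and 0.46. In the fit of all 65 arrays, which treats passages of a line as independent, both passed (limma adjusted p = 0.001 and 0.0044). Esr1 and Pgr, the estrogen and progesterone receptors, were too dim on average over all 65 arrays, most of them transplants, to be tested. Their medians at transplant 4 were at the floor. The mean level of Pgr was 7.01 in primary tumors and 5.86 at transplant 4, and that of Esr1 was 5.89 and 5.32. Whether these levels differ was not tested.

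Mup5, a major urinary protein of the lipocalin family, had levels of 5.31, 10.29 and 11.23 in primary tumors and 5.31, 5.31 and 8.39 at transplant 4, where 8 of 11 arrays were at the floor. It fell by 3.09 ± 0.64 (adjusted p = 0.041), the largest fall of all genes tested, lower in 9 lines and most in 25R (-5.92) and 32 (-5.73). Its family members are near-identical, so the probe set may read several of them. Cxcl14, a chemokine of epithelia, had levels of 6.63, 9.81 and 10.79 in primary tumors and 5.31, 7.58 and 9.53 at transplant 4. It fell by 2.30 ± 0.46 (adjusted p = 0.041), lower in 9 lines and most in series 34 (-5.27). Cx3cl1, fractalkine, fell by 1.05 ± 0.19 (adjusted p = 0.037) in 10 lines. These were the 2 of 26 chemokine genes that fell (7.69%, against 0.518% of all genes), none rose, and none of the 26 passed without series 32, 34 and 42.

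Gsta1, a glutathione transferase with close paralogs that the probe set may also read, had levels of 6.92, 9.51 and 10.52 in primary tumors and 5.31, 7.01 and 9.69 at transplant 4. It was lower in all 11 lines, from -0.08 in series 13 to -2.96 in 19, and fell by 1.78 ± 0.25 (adjusted p = 0.024). Cdo1, cysteine dioxygenase, fell by 1.64 ± 0.34 (adjusted p = 0.043), and 7 of 11 transplant 4 values lay below the lowest primary value of 7.97. Mfsd2a, a transporter of lysophospholipids, fell by 1.86 ± 0.34, with 5 of 11 transplant 4 arrays at the floor. Slco2a1, the prostaglandin transporter, fell by 1.55 ± 0.34, and its second probe set gave -0.74. Bmp3, a ligand of the BMP family, fell by 1.58 ± 0.31 and was higher in series 19 alone (0.73). Adamts1, a secreted protease that cuts proteoglycans, fell by 1.34 ± 0.27 and was higher in series 42 alone (0.11).

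Stromal and immune genes differed from line to line. The fibroblast matrix list had a median of 0.90 over 31 genes, none of which passed. The median was 0.50 without series 32 alone, 1.22 without 10, 0.53 without 32, 34 and 42, and 0.48 with the Gapdh ratio as a covariate. Its mean ran from -2.07 in series 10 to 3.51 in 32, with 25R at 2.55. Col1a1, the main fibrillar collagen, differed by 4.62 in series 32, 4.13 in 25R and -1.91 in 10. Vim, vimentin, differed by 1.09 ± 0.30 (adjusted p = 0.094), lower in series 10 alone (-0.62). S100a4, a calcium-binding protein linked to cell motility, differed by 1.62 ± 0.60 (adjusted p = 0.19), at 5.35 in series 32, 4.53 in 34 and -3.17 in 10. The mesenchymal list had a median of 0.56 with 18 of 22 genes higher. Its median was 0.78 without series 10, 0.36 without 25R, 0.38 without 32 and 0.31 without 32, 34 and 42, and 0.36 with the Gapdh ratio as a covariate. In the fit of all 65 arrays, which treats passages of a line as independent, 5 of the 22 rose, against 2.81% of all genes. The count was also 5 without the transplant 5 array of series 32, against 3.38%. Vim and S100a4 passed in the fit of all 65 arrays (limma adjusted p = 0.0019 and 0.044).

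No gene of the immune, endothelial, fat, muscle or blood cell lists passed. Macrophage genes had a median of 0.45 with 20 of 23 higher, and a list mean from -0.32 in 25L to 1.47 in 25R. The median was 0.30 without 25R and 0.39 without series 32, 34 and 42. Cd68, a macrophage marker, differed by 0.45 ± 0.20 (adjusted p = 0.26). Endothelial genes had a median of 0.21 over 18 genes, T and NK cell genes 0.18 over 16, and mast cell genes -0.18 over 6. Medians were -0.12 for skeletal muscle (16 genes), 0.04 for adipocytes (8), 0.04 for granulocytes (7), -0.06 for red blood cells (6) and 0.06 for B and plasma cells (2). Acta1, muscle actin, was at the floor in 7 primary and 6 transplant 4 tumors and reached 12.23 and 8.93 in others.

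Mean log2 levels over other gene lists are given beside the mitosis list. The mitosis mean ranged from 7.41 to 8.64 in primary tumors and from 7.62 to 9.22 at transplant 4. The fibroblast mean ranged from 7.37 to 10.60 and from 8.05 to 10.87, the macrophage mean from 8.46 to 9.63 and from 8.84 to 10.12, and the luminal mean from 6.41 to 10.13 and from 6.31 to 9.55. In series 10, where the fibroblast mean differed by -2.07, the mitosis mean differed by 0.52, and in series 32, where the fibroblast mean differed by 3.51, it differed by 0.45. The mitosis mean differed most in 25R (0.80), where the fibroblast and macrophage means differed by 2.55 and 1.47. It differed least in series 34 (0.16), where they differed by 1.54 and 0.32. The part of these cell types in the mitosis result and in the other results was not tested.

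**Figure D4:**
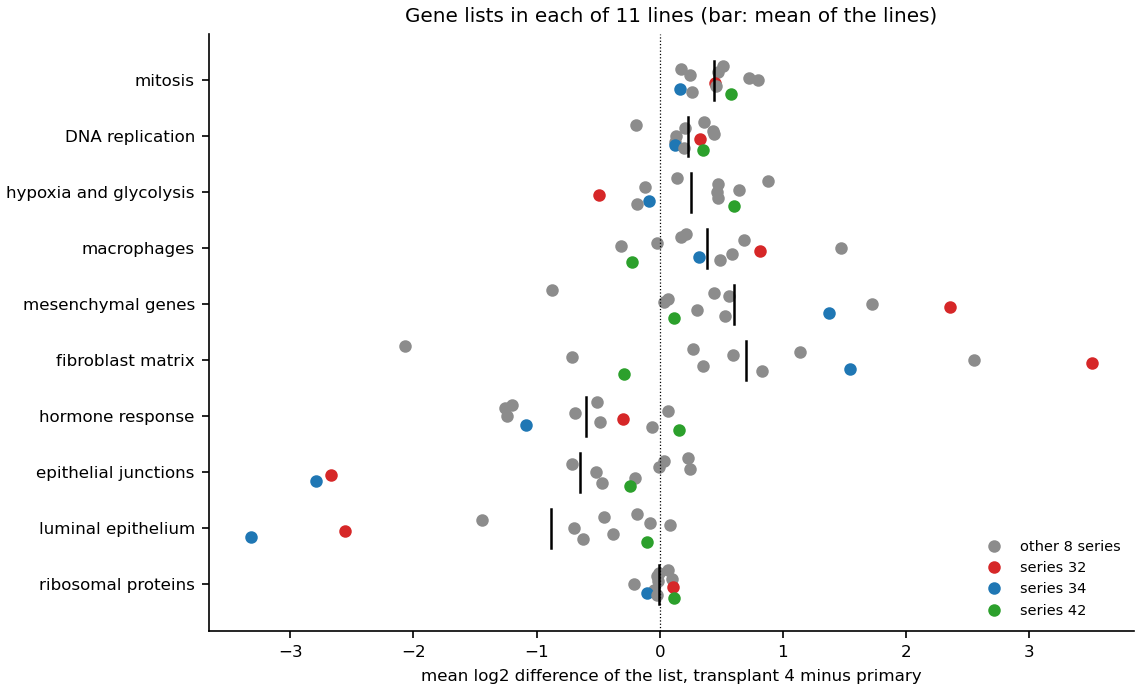
Mean log2 difference between transplant 4 and primary tumor over the measured genes of each of 10 lists, 1 point per line (series 32, 34 and 42 coloured, the other 8 grey) and a bar at the mean of the 11 lines. The mitosis points lie between 0.16 and 0.80, the fibroblast matrix points spread from -2.07 to 3.51, and series 32 and 34 are the lowest points in luminal epithelium.

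Metabolic and housekeeping lists held few calls. Cholesterol synthesis had 2 of 19 genes that rose (10.5%, against 0.529%) and a median of 0.20. These were Insig1, which holds back the activation of SREBP, by 0.76 ± 0.16 in 9 lines, and Mvk, mevalonate kinase, by 0.35 ± 0.08 in 11, where other Mvk probe sets gave 0.51 and 0.02. With 1 line left out, 1 gene of the list passed without series 32 or 36 and none otherwise, and none passed without series 32, 34 and 42. Mvk lost its call in all 11 of these fits and Insig1 in 10. Hypoxia and glycolysis genes had a median of 0.27 with 44 of 54 higher and none past the threshold, and a list mean from -0.49 in series 32 to 0.88 in 13. The median was 0.17 without series 13, 0.18 with the Gapdh ratio as a covariate, 0.16 without 25L and 25R, and 0.29 without 32, 34 and 42. Bmp3 was the 1 of 43 Wnt and BMP genes that fell (2.33%, against 0.518%), and Adamts1 the 1 of 25 matrix protease genes (4.00%). Without series 32, 34 and 42, 1 gene of the former list and 2 of the latter passed. Milk secretion genes had a median of -0.02 over 20, with list means from -1.49 in 25R to 1.31 in 13 and none past the threshold.

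The remaining lists also had no call. Their medians were 0.19 for antigen presentation (30 genes), 0.12 for basement membrane (17), 0.12 for immediate early genes (29), 0.11 for endoplasmic reticulum stress (30) and 0.09 for the proteasome (32). They were 0.06 for S100 proteins and galectins (18), 0.04 for lipogenesis (22), -0.03 for the interferon response (19) and -0.15 for p53 targets (12). Oxidative phosphorylation (51) had 0.03 and -0.02 after quantile normalization, and ribosomal proteins (39) 0.00 and -0.07.

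Among genes just short of the threshold were 2 that were low in most primary tumors. Ocm, oncomodulin, a calcium-binding protein, lay at the floor in each of the 11 primary tumors and above it in 8 of 11 at transplant 4, up to 8.78. It differed by 1.56 ± 0.35 (adjusted p = 0.053), with both tumors at the floor in the other 3 lines. With every primary tumor at the floor, Ocm could not have differed downward. Sostdc1, a secreted protein that blocks BMP and Wnt ligands, had levels of 5.31, 5.51 and 8.58 in primary tumors and 5.31, 8.12 and 11.17 at transplant 4. It was higher in 8 lines by 1.52 to 3.80, and differed by -0.22, -0.78 and 0.00 in series 32, 34 and 42. Its mean difference was 1.81 ± 0.41 (limma adjusted p = 0.052), and without those 3 lines the mean difference was 2.62. This drop was chosen after seeing the data and removes the lines without a rise, so the larger value is not a test of Sostdc1. Genes were tested only if their mean over all arrays, most of them transplants, exceeded 6.35. The primary tumor means of Ocm and Sostdc1, 5.31 and 5.99, lay under that limit. Both were therefore tested only because transplants were higher, and their p-values do not allow for it.

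The same lines were measured at the other passages, so the fourth transplant was also tested against each of them. No gene passed between transplant 4 and transplant 1, 2 or 3, or between transplant 5 and transplant 4 (limma, 0% called each, smallest adjusted p 0.63, 0.72, 0.50 and 1.00). At an unadjusted p under 0.05 there were 648, 561, 592 and 264 genes, and the fit of all 65 arrays called none either (828, 569, 88 and 331 unadjusted). So no gene was shown to be particular to the fourth transplant among the transplants. Against the primary tumor, paired fits called 0 genes at transplant 1 (719 unadjusted), 8 at transplant 2 (0.0941%), 0 at transplant 3 (1197 unadjusted) and 133 at transplant 5 (1.56%, 10 lines). Without series 32, 155 genes were called at transplant 5, and none between transplants 5 and 4 (278 unadjusted, smallest adjusted p 1.00). These comparisons share their primary tumors with that of transplant 4.

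Values by passage are therefore given side by side, each as the mean difference from the primary tumor ± SE at transplants 1, 2, 3, 4 and 5. Cks2 differed by 0.36 ± 0.20, 0.57 ± 0.23, 0.54 ± 0.23, 0.80 ± 0.12 and 0.87 ± 0.24. Cd44 differed by 0.25 ± 0.23, 0.41 ± 0.20, 0.61 ± 0.20, 0.97 ± 0.18 and 1.53 ± 0.23. Cd44 did not pass between neighbouring transplants, at 0.35 ± 0.09 from transplant 3 to 4 (adjusted p = 0.61) and 0.49 ± 0.21 from 4 to 5 (adjusted p = 1.00). Gsta1 differed by -1.03 ± 0.29, -1.16 ± 0.31, -1.23 ± 0.31, -1.78 ± 0.25 and -2.09 ± 0.29. Prom1 differed by -0.66 ± 0.25, -1.19 ± 0.23, -1.48 ± 0.23, -1.39 ± 0.20 and -1.47 ± 0.28, and by 0.10 ± 0.13 from transplant 3 to 4 (adjusted p = 0.88). Cldn3 differed by -0.64 ± 0.20, -1.57 ± 0.39, -2.03 ± 0.47, -2.16 ± 0.44 and -2.48 ± 0.49. From transplant 1 to 4 Cldn3 differed by -1.52 ± 0.40, which did not pass (adjusted p = 0.63). Without series 32 the differences at transplant 5 were 1.06 ± 0.19 for Cks2, 1.57 ± 0.24 for Cd44, -1.99 ± 0.30 for Gsta1, -1.26 ± 0.24 for Prom1 and -2.17 ± 0.45 for Cldn3.

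**Figure D5:**
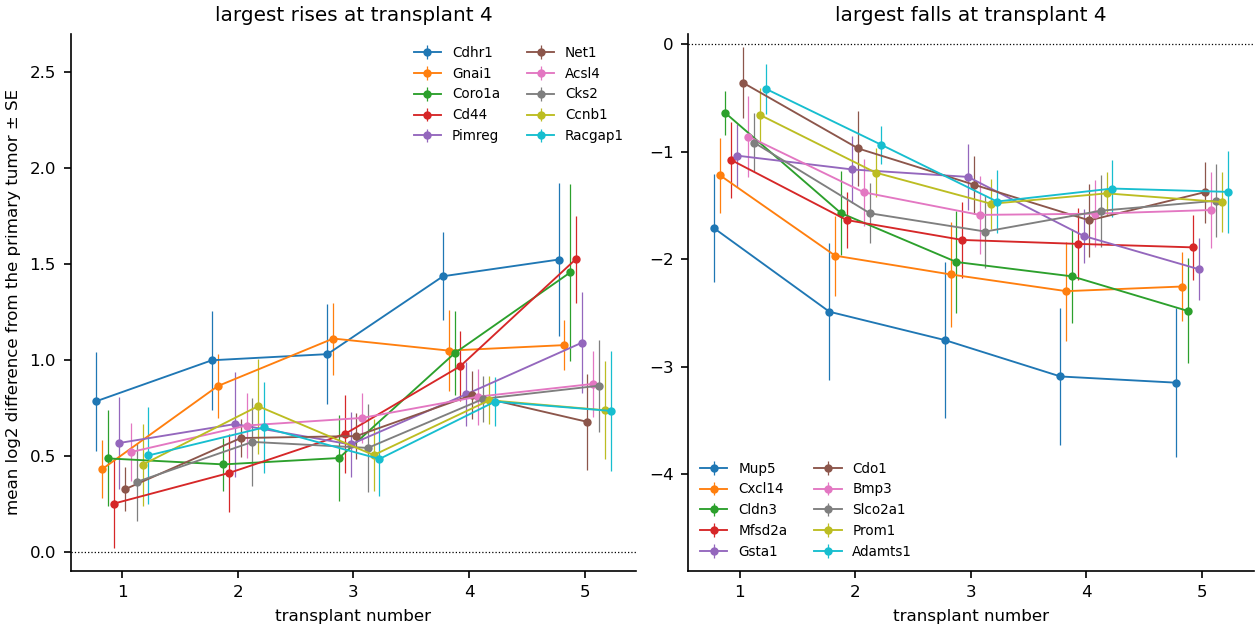
Mean log2 difference from the primary tumor of the same line (points, ± SE) at transplants 1 to 4 (11 lines) and 5 (10 lines), for the 10 genes with the largest rise (left) and the 10 with the largest fall (right) at transplant 4. All 20 lie on the same side of 0 at each passage shown; the genes were chosen by transplant 4, and all points share the primary tumors.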

How the data were processed

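Frozen tumor tissue gave total RNA, which was made into biotin-labelled cRNA and hybridised to 1 Affymetrix array per tumor, per the labels' protocols. The deposited values are linear intensities, 1 per probe set, and the authors' summary and normalization method was not given in the sources used here. Arrays were scaled to a common median, values were floored at the 10th percentile (39.8), log2 was taken, and 57 control probe sets were left out. Of 15866 probe sets, 12783 had 1 gene symbol, 312 several and 2771 none in the platform table, and 12748 matched a RefSeq gene. The probe set with the highest mean over the 65 arrays stood for each of 10411 genes, and 8499 above a log2 mean of 6.35 (25th percentile) were tested. That mean is also over all 65 arrays, most of them transplants. A gene low in primary tumors could therefore pass through the transplants, and a gene high in primary tumors alone could miss the filter.

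The comparison was fitted with limma 3.58.1 in R 4.3.3 (lmFit, eBayes) with the line as a block, tested on simulated data beforehand. The pairing comes from the lines of descent. Deviations of a line's primary tumor and transplant 4 from their group means correlated by 0.18 on average (-0.17 to 0.81, over 0.1 in 5 of 11 lines), against -0.01 between different lines. Genes named are the 10 largest rises and falls among calls that agree in at least 9 lines, called and leading list members, and defining genes of the tissue. The comparison, the lists and these rules were chosen with earlier results of these data known. Scaling, floor, filter, probe set rule, weights, covariates and single lines were varied. The number of arrays is among the limits on precision.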

Additional observations from a re-analysis of the deposited data

Results flagged for a closer look

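Of the 39 called genes whose values by line were checked, 3 had 1 line far from the others in transplant 5 minus primary (10 lines), a check that chance meets in about 1 of 20 groups. All 3 are mitosis genes and the line is series 32 each time, so the flags rest on 1 array. That transplant 5 array had a median intensity of 96.1 before scaling, while the other 64 arrays lay between 143 and 176.5. Racgap1 differed by -2.12 there, with the next line at 0.0031. Kif20a differed by -2.27, with the next line at 0.30. Cdca8 differed by -1.21, with the next line at 0.22. At transplant 4 the same line was higher than its primary tumor for all 3, by 0.85, 0.55 and 0.65. Whether the array's low brightness bears on the flags was not tested.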

How the results depend on the processing

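Leaving out 1 line at a time gave 0 to 100 calls in place of 89. Without the replicate block, ignoring the pairing, 0 genes passed (942 at an unadjusted p under 0.05, smallest adjusted p 0.094, limma). With the Gapdh ratio as a covariate 0 passed (smallest adjusted p 0.18). Averaging 25L and 25R left 18 calls, and dropping both left 0 (1182 unadjusted, smallest adjusted p 0.074). Fitting all 65 arrays gave 534 calls, and dropping series 32, 34 and 42 gave 12. Dropping several lines at once, or the transplant 5 array of series 32, was chosen after seeing the data. Other scaling, floor, filter, probe set and weighting choices gave 61 to 115 calls, and 52 to 88 of these were among the 89. The cause of these shifts was not tested. Of 1182 values of single genes under these alternatives none changed sign, 534 lost their call and 25 gained one. As most of these genes were picked by the main fit, a change of sign was unlikely from the start. The direct comparisons of transplant 4 with the other transplants had 0 calls in every alternative run for them, which were those above other than dropping several lines at once. The scale of the deposited intensities before deposit is unknown, and values at the floor are bounds.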

Other observations

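Some called genes outside the lists belong to recognisable groups, noticed after their values were seen and not tested as groups. Only called members are given, so the values do not describe the groups as wholes. These genes were not among the 39 followed by line. Like all calls, theirs were lost without series 10, 17, 25R or 33. Arpc1b, Arpc2 and Arpc3, subunits of the Arp2/3 complex that nucleates branched actin, rose by 0.62 ± 0.10, 0.47 ± 0.09 and 0.37 ± 0.08 (SE; limma adjusted p = 0.027, 0.037 and 0.043), each higher in all 11 lines. Rab8b and Rab35, small GTPases of membrane traffic, rose by 0.48 ± 0.08 and 0.45 ± 0.08, whereas Rab33b fell by 0.48 ± 0.09, each in all 11 lines. Further genes of chromosome segregation rose in all 11 lines, among them Spc25, a kinetochore protein (0.74 ± 0.11), and the kinesins Kif22 (0.73 ± 0.12) and Kif15 (0.64 ± 0.11).

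Among the falls, Arg2, mitochondrial arginase, fell by 1.08 ± 0.17 (adjusted p = 0.024) in 10 lines. Il18, an interleukin, fell by 1.17 ± 0.24 in 10 lines. Src, a tyrosine kinase, fell by 0.49 ± 0.10, and Tbx3, a transcription factor of mammary development, by 0.60 ± 0.13, each in all 11 lines.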
